A study of Mus musculus with 9 samples.

Results

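The acute phase and NF-kB inflammation genes examined here are 34 genes of liver inflammation, taken from the files by symbol, with no rule on their values; the list itself was drawn up with earlier results of these data known. All 34 were found among the 21878 gene symbols of the deposited count table. The samples are WT-GFP cells: hepatocytes of C57BL/6 mice with wild-type Atp7b that had been reprogrammed in culture to liver progenitors, given a GFP lentivirus, redifferentiated to hepatocyte-like cells over 3 weeks and then kept with copper chloride for 24 hours. The protocols give the copper dose as 100 µM, while the treatment field gives 100 mM, and the growth protocol calls the wild-type cells WT-ATP7B where the titles say WT-GFP. The redifferentiation medium held oncostatin M (OSM) at 20 ng/ml with DAPT and SB431542, and all groups of the study received the same medium and the same copper.

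The study compares these cells with knockout cells that carry an ATP7B or a GFP lentivirus, with 3 samples in each of 3 groups. Of the 9 numbered count columns, 2 bear a number that also heads a file deposited for a single sample. They are WT-GFP replicates 1 and 2, and the other 7 columns were not used here, since a column's place in the table does not say which sample it is. The values below therefore describe 1 group in 2 libraries, with no comparison of genotypes or vectors and no cells without copper. No label says whether the 2 libraries came from separate cultures or mice, so differences between them may be technical. Being bulk RNA, the libraries cannot tell fewer cells expressing a gene from less RNA per cell.

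In the acute phase response the liver changes the proteins it secretes into blood when cytokines of the interleukin-1, tumour necrosis factor and interleukin-6 families reach it. Interleukin-1 and tumour necrosis factor act through NF-kB, dimers of Rel proteins that inhibitors such as IkBα hold in the cytoplasm until a kinase complex marks the inhibitor for destruction. Interleukin-6 and OSM act through receptors that share the subunit gp130 and through the transcription factor STAT3, and both routes induce their own inhibitors.

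The 34 genes ranged from no reads (Il6, Tnf and Il1b) to 527 FPKM (Hpx, rank 93 of all symbols). Levels are FPKM, counts scaled to gene length and to the library's total, given as the mean ± SD of the 2 libraries (n = 2). At 10 FPKM or more stood 18 genes (52.9%), against 27.1% of all symbols in the table, 8 lay between 1 and 10 FPKM and 8 were below 1 FPKM (23.5%, against 51.2% of all symbols). Many symbols of the table belong to genes of other tissues, so these shares do not set the genes apart from other liver genes. The median was 11.6 FPKM (11.7 in replicate 1 and 11.4 in replicate 2). Together the 34 genes took 0.218% of the counts of replicate 1 (95% exact interval 0.216 to 0.220%) and 0.211% of those of replicate 2 (0.209 to 0.213%).

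FPKM depend on the gene length used to make them. The lengths implied by the deposited values were shorter than the union of GENCODE exons for 28 of the 31 genes with a count, and the union put 12 genes at 10 FPKM or more and the median at 5.30 FPKM. By this choice of length 16 genes fell by more than 1.5 times. The 6 genes that it moved below 10 FPKM were Crp (9.90), Tnfaip3 (9.77), Cxcl1 (7.03), Vcam1 (5.58), Osmr (5.46) and Nfkb1 (5.14). The share of all symbols at 10 FPKM or more was not computed with the union of exons. The other gene lists below keep the deposited lengths.

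**Figure D1:**
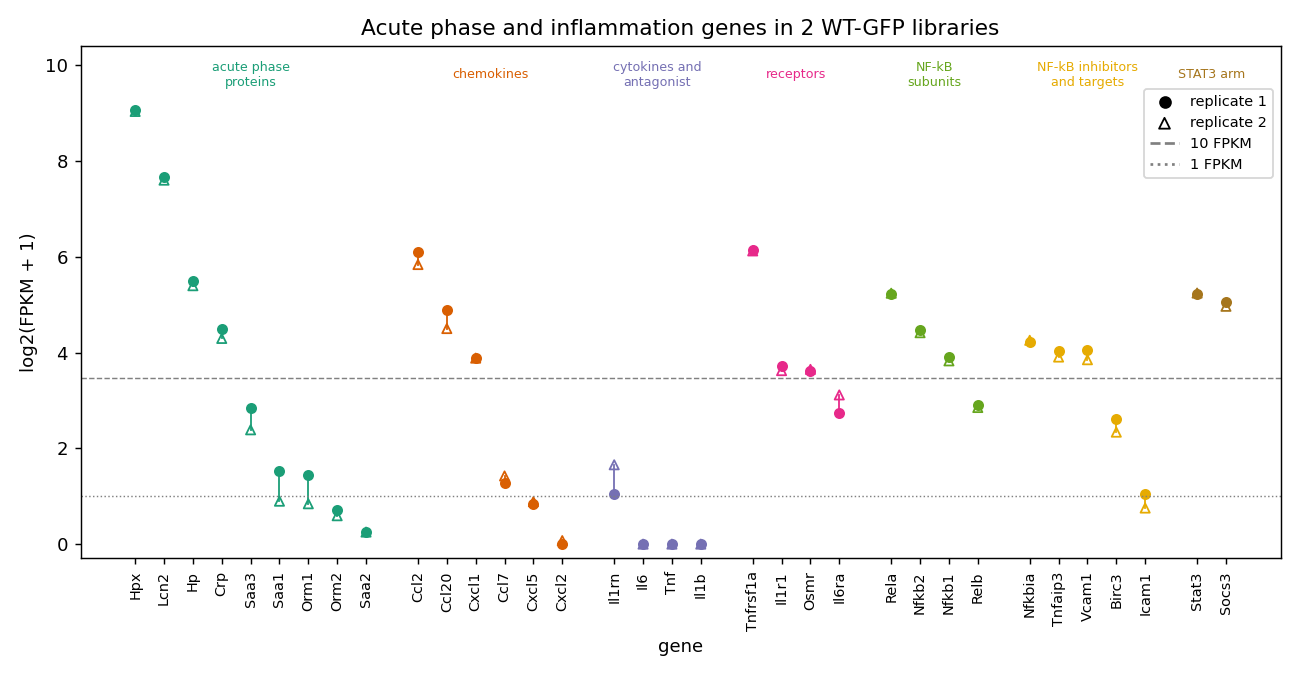
Level of each of the 34 genes as log2(FPKM + 1), grouped by role and ordered by mean within a role; filled circles are WT-GFP replicate 1 and open triangles replicate 2, with dashed and dotted lines at 10 and 1 FPKM. Hpx and Lcn2 stand above all others, Il6, Tnf and Il1b lie at 0, and the 2 libraries are farthest apart on this scale for low genes such as Saa1, Orm1 and Il1rn.

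Among the secreted acute phase proteins, the scavengers of heme and of siderophores were high, and the serum amyloid A and orosomucoid genes were low. Hpx (ENSMUSG00000030895.9, chromosome 7, 105591613 to 105600137, minus strand, GRCm38, protein-coding) encodes hemopexin, the plasma protein that binds free heme. It was at 532 FPKM in replicate 1 and 522 FPKM in replicate 2 (527 ± 6.71 FPKM, SD, n = 2). It alone held 36.1 and 36.7% of the counts of the 34 genes. Lcn2 (ENSMUSG00000026822.14, chromosome 2, 32384633 to 32388252, minus strand), the lipocalin that binds bacterial siderophores, was at 200.3 and 193 FPKM (197 ± 5.37, rank 312). With the union of GENCODE exons Lcn2 came to 63.9 FPKM, which is below the 520.5 FPKM of Hpx on the same scale. It was then close to the receptor gene Tnfrsf1a, at 57.3 FPKM.

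Hp, which encodes the hemoglobin-binding protein haptoglobin, stood at 43.7 and 41.1 FPKM. Crp, the mouse C-reactive protein gene, which in mice is only a minor acute phase reactant, was at 21.5 and 18.6 FPKM. Both libraries put Hp above Crp and both genes far under Hpx.

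Serum amyloid A genes, which in inflamed mouse liver are among the most strongly induced, had few reads. Saa3 was highest of them, with 61 and 40 counts (6.20 and 4.23 FPKM, or 1.06 FPKM on average with the union of exons). Saa1 had 32 and 14 counts (1.89 and 0.860 FPKM). Saa2 had 3 counts in each library (0.183 and 0.190 FPKM). These counts put Saa1 at 1.73 CPM (the count scaled to the library total alone, 95% exact interval 1.18 to 2.44) in replicate 1 and at 0.786 CPM (0.429 to 1.32) in replicate 2. They put Saa2 at 0.162 CPM (0.0334 to 0.473) in replicate 1 and at 0.168 CPM (0.0347 to 0.492) in replicate 2.

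Orm1 and Orm2, which encode the orosomucoids (alpha-1-acid glycoproteins), had 25 and 11 counts and 9 and 7 counts. Their levels were 1.73 and 0.792 FPKM for Orm1 and 0.627 and 0.507 FPKM for Orm2. So the members of this role fell into 4 genes at 10 FPKM or more (Hpx, Lcn2, Hp and Crp) and 5 genes below that, with no gene between 6.20 and 18.6 FPKM in either library.

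Saa1, Saa2 and Saa3 lie close together on chromosome 7, with 8.81 kb between Saa1 and Saa2 and 24.8 kb between Saa1 and Saa3. Over aligned bases the first annotated transcripts of Saa1 and Saa2 were 94.4% identical, and 13.3% of the 50-base words of the Saa2 transcript also occur in that of Saa1. For Orm1 and Orm2, 14.3 kb apart on chromosome 4, these values were 91.0% and 20.4%. Whether reads that fit both copies were split, assigned or dropped is not stated, so the values of Saa1, Saa2, Orm1 and Orm2 are uncertain. Saa1 and Saa3 transcripts shared 1.78% of such words.

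Upstream sequence shows the likeness of Saa1 and Saa2 directly. The stretches below are from RefSeq on GRCm38.p6, read 5′ to 3′ on the gene's own strand. Capitals mark a match to TTGCNNAA, the core letters bound by C/EBP factors, which together with STAT3 and NF-kB act at acute phase genes.
Saa1: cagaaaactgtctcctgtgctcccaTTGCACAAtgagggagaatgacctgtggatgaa
Saa2: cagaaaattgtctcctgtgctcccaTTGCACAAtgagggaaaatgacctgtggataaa
Lcn2: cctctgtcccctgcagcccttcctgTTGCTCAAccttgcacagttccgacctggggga
They are chr7:46743130-46743187 (minus strand, 207 to 150 bases before the start of Saa1), chr7:46751625-46751682 (plus strand, 208 to 151 before Saa2) and chr2:32387923-32387980 (minus strand, 241 to 184 before Lcn2). All starts are those of RefSeq. The Lcn2 stretch lies inside the GENCODE gene interval given above, whose 5′ end is further upstream. RefSeq promoters were at hand for 26 of the 34 genes, 32 promoters in all because some genes have several starts. On either strand of the 250 bases before a start, TTGCNNAA occurred in 8 of the 32 promoters of these genes, against 9.56% of all 32851 promoters in the table. The list was assembled around acute phase genes, so this share is no independent evidence. The 8 promoters belong to Hpx, Il1r1, Il6, Lcn2, Orm2, Saa1, Saa2 and Saa3. The match was thus present upstream of genes at both ends of the range, Hpx at 527 FPKM and Saa2 at 0.187 FPKM. A match of letters is a description and does not show binding.

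Other acute phase genes were expressed in the same uneven way. Of 24 further genes, 14 reached 10 FPKM and 7 were below 1 FPKM, with a median of 11.6 FPKM. Highest were Fgb, the fibrinogen beta chain, at 633 ± 50.9 FPKM, Cp, the copper-carrying plasma protein ceruloplasmin, at 284 ± 8.99 FPKM, and the protease inhibitor gene Serpina3n at 93.1 ± 0.963 FPKM. Genes of plasma proteins that decline in the acute phase were higher, with 5 of 6 at 10 FPKM or more and a median of 377 FPKM. These were led by Alb (albumin) at 929.6 ± 33.4 FPKM, Trf (transferrin) at 482 ± 43.6 FPKM and Apoa1 (apolipoprotein A-I) at 418 ± 24.0 FPKM.

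Of the 6 chemokine genes 3 reached 10 FPKM. Ccl2 (ENSMUSG00000035385.5, chromosome 11, 82035571 to 82037453, plus strand), whose product draws monocytes, was at 67.1 and 56.1 FPKM (61.6 ± 7.76). Ccl20 (chromosome 1, 83116766 to 83119167, plus strand), the ligand of CCR6 on lymphocytes and dendritic cells, was at 28.7 and 21.6 FPKM (25.2 ± 5.03). Cxcl1 (chromosome 5, 90891241 to 90893115, plus strand), a neutrophil attractant, was at 13.8 and 13.7 FPKM. Ccl7 (1.41 and 1.68 FPKM), Cxcl5 (0.782 and 0.847 FPKM) and Cxcl2 (0 and 1 count) were low.

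Neighbouring chemokine genes stood far apart in level. Ccl2 and Ccl7 are separated by 8.26 kb, and Ccl2 had 1002 and 806 counts where Ccl7, a monocyte attractant of the same family, had 21 and 24. Cxcl1 and Cxcl2 are separated by 10.8 kb, and Cxcl1 had 245 and 234 counts. Neither pair shared a 50-base word between its first annotated transcripts, unlike Saa1 and Saa2. The other neighbours Cxcl3 and Cxcl15 had 0 and 0 counts and 2 and 2 counts.

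Upstream of Cxcl1 and Cxcl2 the same letters match the NF-kB consensus, a motif of 10 bases searched on both strands. They are shown with those of Ccl20, of Il6, which had no reads, and of Nfkbia, the gene of the inhibitor IkBα. Capitals mark the matched bases, which overlap on the 2 strands in Cxcl1 and Cxcl2.
Cxcl1: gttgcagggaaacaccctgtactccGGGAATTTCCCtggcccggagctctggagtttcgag
Cxcl2: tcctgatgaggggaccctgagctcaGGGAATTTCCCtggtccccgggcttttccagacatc
Ccl20: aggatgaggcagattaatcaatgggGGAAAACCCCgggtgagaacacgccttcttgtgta
Il6: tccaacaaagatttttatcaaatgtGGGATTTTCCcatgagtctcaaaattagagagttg
Nfkbia: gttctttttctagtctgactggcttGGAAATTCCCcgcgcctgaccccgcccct
They are chr5:90891149-90891209, chr5:90903777-90903837, chr1:83116661-83116720 and chr5:30013045-30013104, all on the plus strand, and chr12:55492648-55492701 on the minus strand. This consensus was found in the 250 bases before a start in 10 of the 32 promoters, which belong to 8 genes (Ccl20, Cxcl1, Cxcl2, Il1r1, Il6, Nfkb2, Nfkbia and Tnfaip3), against 3.9% of all promoters. The list was assembled around NF-kB, so this share is no independent evidence. Of the 8 genes, Cxcl2 and Il6 were at or near 0 counts and the other 6 lay between 11.8 and 25.2 FPKM, so the match was found upstream of both silent and expressed genes.

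The classical inflammatory cytokines were not detected. Il6, Tnf and Il1b, the genes of interleukin-6, tumour necrosis factor and interleukin-1β, had 0 counts in both libraries, which allows up to 3 counts, or 0.162 CPM in replicate 1 and 0.168 CPM in replicate 2. The two-sided 95% exact interval, used for the other genes, reaches 0.199 and 0.207 CPM. Il1rn (ENSMUSG00000026981.15, chromosome 2, 24336853 to 24351494, plus strand), which encodes the antagonist that blocks the interleukin-1 receptor, was detected with 55 and 108 counts. Its level was 2.97 CPM (95% exact interval 2.24 to 3.86) in replicate 1 and 6.06 CPM (4.97 to 7.32) in replicate 2, and the intervals do not overlap.

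RNA of the receptors for these cytokines was detected, although RNA of the cytokines was not. Tnfrsf1a (ENSMUSG00000030341.17, chromosome 6, 125349362 to 125362484, plus strand), the main receptor of tumour necrosis factor, was at 69.1 and 68.6 FPKM (68.8 ± 0.353), the third highest of the 34 genes. Il1r1, the signalling receptor of interleukin-1, was at 12.2 and 11.3 FPKM. Osmr, the OSM receptor subunit that pairs with gp130, was at 11.2 and 11.5 FPKM. Il6ra, the interleukin-6 receptor, was lower at 5.70 and 7.66 FPKM, and its 2 libraries did not overlap those of the other 3 receptors. Il6st, which encodes gp130, was at 46.5 ± 3.02 FPKM. Il1rap, the partner subunit of Il1r1, had 96 and 86 counts and lay below 1 FPKM.

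NF-kB subunits were all expressed. Rela (ENSMUSG00000024927.8, chromosome 19, 5637483 to 5648130, plus strand), which encodes the p65 subunit, was highest at 36.5 and 36.7 FPKM. Nfkb2, the precursor of p52 in the non-canonical arm, was at 21.1 and 20.3 FPKM. Nfkb1, the precursor of p50, was at 13.9 and 13.2 FPKM, and Relb, the partner of p52, at 6.43 and 6.22 FPKM. The order Rela, Nfkb2, Nfkb1, Relb held in both libraries with no overlap, and with the union of exons Nfkb1 (5.14 FPKM) and Relb (4.63 FPKM) came close together.

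Inhibitors and targets of NF-kB were mostly moderate. Nfkbia (ENSMUSG00000021025.8, chromosome 12, 55489410 to 55492647, minus strand), whose product IkBα retains NF-kB in the cytoplasm, was at 17.6 and 18.1 FPKM. Tnfaip3, the gene of the ubiquitin-editing inhibitor A20, was at 15.4 and 14.0 FPKM, and Birc3, the ubiquitin ligase cIAP2, at 5.12 and 4.05 FPKM. The leukocyte adhesion molecules diverged: Vcam1 was at 15.7 and 13.4 FPKM and Icam1 at 1.06 and 0.685 FPKM, from 50 and 31 counts. Vcam1 thus lay above Icam1 in both libraries, and it did so with the union of exons too (5.58 and 0.509 FPKM on average).

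Of the STAT3 arm, Stat3 (ENSMUSG00000004040.16, chromosome 11, 100885098 to 100939540, minus strand) was at 36.2 and 36.8 FPKM. Socs3, the feedback inhibitor that binds gp130 and is itself a STAT3 target, was at 32.3 and 30.2 FPKM. Both were among the 8 highest of the 34 genes, and the libraries of Stat3 overlapped those of Rela. With the union of exons Stat3 was at 18.2 FPKM and Socs3 at 34.5 FPKM, which turns their order. The medium of these cells held OSM, a ligand of this route, and its part in the levels was not tested. A match to TTCNNNGAA, the palindrome bound by STAT factors, stands upstream of the RefSeq start of Socs3 and is shown in capitals.
Socs3: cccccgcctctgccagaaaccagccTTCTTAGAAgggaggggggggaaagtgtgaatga
It is chr11:117969487-117969545 on the minus strand, 179 to 121 bases before that start. This stretch lies inside the GENCODE gene interval of Socs3 (117966079 to 117970047), whose 5′ end is further upstream. The same letters occurred in 4 of the 32 promoters (of Icam1, Nfkb2, Socs3 and Tnfrsf1a), against 7.02% of all promoters. As the list was assembled from inflammation genes, this share too is no independent evidence.

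The signalling genes around these members were largely present. Of 46 other NF-kB pathway genes, 19 reached 10 FPKM, 19 lay between 1 and 10 FPKM and 8 were below 1 FPKM. Ltbr, the lymphotoxin beta receptor, was highest at 63.5 ± 2.73 FPKM, followed by the kinase complex genes Ikbkg (NEMO, 45.4 ± 0.852 FPKM) and Chuk (IKKα, 42.4 ± 1.15 FPKM). Ikbkg reached this FPKM with 10335 and 10206 counts, against 2854 and 2852 for Chuk, so its implied gene length was far longer. That length was not checked here, and the level of Ikbkg rests on it. Ikbkb (IKKβ) was at 17.8 ± 1.07 FPKM and the adaptor gene Myd88 at 12.2 ± 0.234 FPKM. Tlr4, the endotoxin receptor, had 131 and 129 counts and was below 1 FPKM. Of 19 genes of the interleukin-6 and OSM route, 6 reached 10 FPKM and 5 were below 1 FPKM. Cebpb, a C/EBP factor of the acute phase, was highest at 59.3 ± 1.05 FPKM, then the kinase gene Jak1 at 49.8 ± 1.51 FPKM and Il6st. Cebpd, its relative, was at 8.92 ± 1.53 FPKM.

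Markers check the labelled cell type. Of 20 hepatocyte markers 10 reached 10 FPKM, with Alb and Fgb highest. Of these 10 only Apob, Hnf4a and Cyp3a11 are not also counted in the acute phase lists above. The 5 below 1 FPKM, named after their values were seen, were Arg1 (0.370 FPKM), Otc (0.0721), Pck1 (0.337), G6pc (0.452) and Tat (0.878). The 5 between 1 and 10 FPKM, named likewise, were Apoa2 (6.54 FPKM), Cyp2e1 (2.26), Apoc3 (1.70), Ass1 (1.28) and Cps1 (1.21). Of 13 progenitor and biliary markers 7 reached 10 FPKM, led by Cd24a (649 ± 27.0 FPKM), Spp1 (604 ± 27.9 FPKM) and Krt19 (344 ± 36.5 FPKM). RNA of both kinds of markers was thus present in the same libraries, and bulk RNA cannot show whether the same cells held both. Immune and stromal cells also make the chemokines and cytokines of the list. Of 18 macrophage markers 15 were below 1 FPKM and 9, among them Adgre1 and Clec4f, had no counts, while Cd68 (17.1 ± 3.34 FPKM), Cd14 (14.5 ± 0.653 FPKM) and Csf1r (2.15 ± 0.249 FPKM) were detected. Summed over the list, macrophage markers came to 32.4 and 36.5 FPKM, most of it from Cd68 and Cd14. Cd14 is also counted among the 24 further acute phase genes. Ptprc, a gene of leukocytes in general, had 0 and 2 counts. Of 14 lymphocyte and neutrophil markers 11 had no counts, and the highest, S100a8, had 4 and 3 counts. Endothelial markers were below 1 FPKM in 11 of 12 cases and stellate or fibroblast markers in 11 of 12. Among 8 mesothelial markers Msln was at 1159 ± 20.7 FPKM, Krt19 as above and Upk1b at 28.1 ± 2.22 FPKM, with 3 below 1 FPKM. How much these cell types add to the levels of the 34 genes was not tested.

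**Figure D2:**
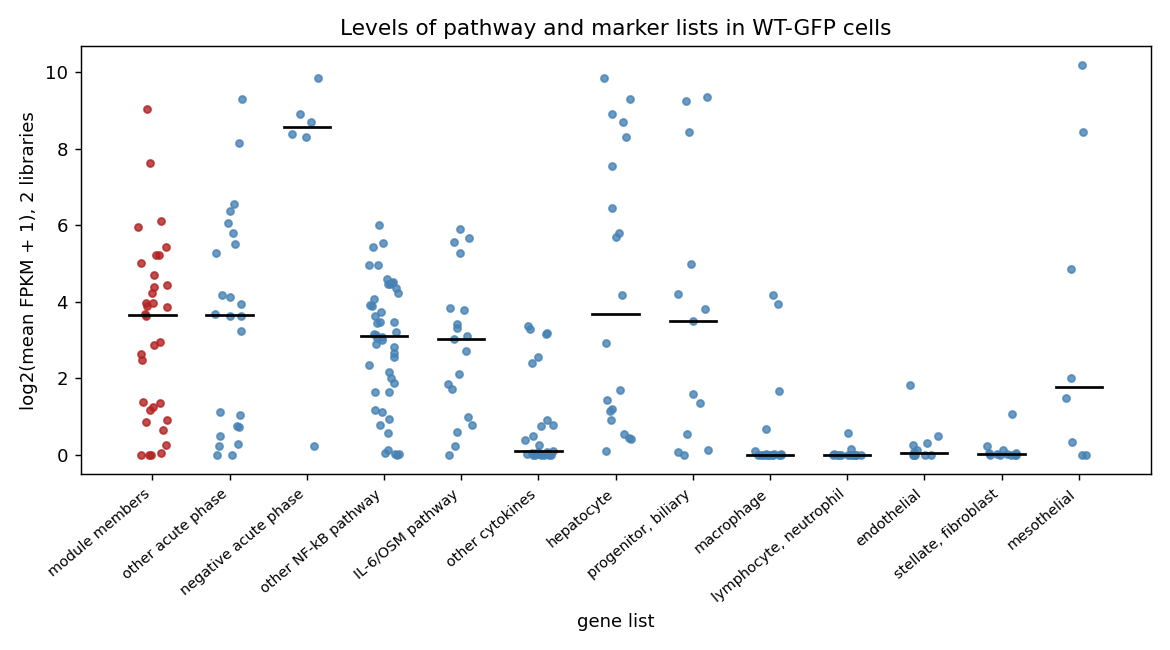
Mean level of every gene in each list as log2(mean FPKM + 1) over the 2 WT-GFP libraries; each point is a gene, the bar is the list's median, and the 34 genes are in red. Their median of 11.6 FPKM lies beside that of the other acute phase genes and far under the median of 377 FPKM of the negative acute phase genes, and most macrophage, lymphocyte, endothelial and stellate markers sit near 0.

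Between the 2 libraries 6 of the 34 genes differed by more than counting error: Il1rn, Il6ra, Ccl20, Ccl2, Vcam1 and Birc3. For each of the 12302 genes averaging 10 counts or more, the share of its reads found in replicate 2 was set against that library's share of all reads by a two-sided exact binomial test, and p-values were adjusted over these genes (Benjamini-Hochberg, 0.05). This is a comparison of libraries within a group and says nothing of conditions. Of the 34 genes 28 could be tested and 6 fell under the minimum (Saa2, Orm2, Cxcl2, Il6, Tnf and Il1b). The test called 6 of the 28, against 14.8% of all genes tested. Higher in replicate 2 were 2 genes (8.38% of all genes were called so), and lower were 4 (6.38%).

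The 2 genes higher in replicate 2 were Il1rn and Il6ra. By the exact binomial test Il1rn differed by 1.02 on the log2 scale (adjusted p = 0.000249), or 2.03 times from a low count, and Il6ra by 0.42 (adjusted p = 0.000637), or 1.34 times.

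The 4 genes lower in replicate 2 were the chemokine genes Ccl20 and Ccl2, the adhesion gene Vcam1 and Birc3. Their log2 ratios were -0.41 for Ccl20 (adjusted p = 0.00233), -0.26 for Ccl2 (0.00262), -0.23 for Vcam1 (0.0102) and -0.34 for Birc3 (0.0385), all by the exact binomial test. Saa1 (-1.11, adjusted p = 0.0713) and Orm1 (-1.09, adjusted p = 0.132) had the largest ratios among the genes that the exact binomial test did not call, from 14 and 11 reads in replicate 2. Hpx (-0.03), Lcn2 (-0.06), Rela (0.01), Stat3 (0.03) and Tnfrsf1a (-0.01) had high counts, and all 5 ratios were under 1 SD of the ratios of genes with 1000 counts or more.

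Of the 28 genes 20 (71.4%) had the lower value in replicate 2, called or not, against 47.0% of all genes tested, and their median log2 ratio was -0.07 against 0.01. TMM scaling, which corrects for RNA composition, moved the balance of calls over all genes from 1031 higher and 785 lower to 836 higher and 958 lower. Among the 34 genes it gave 2 higher (6.8% of all genes) and 5 lower (7.79%), Crp being the one added (adjusted p = 0.0455, exact binomial test), and 21 of 28 (75.0%) lay lower, against 51.1% of all genes. Bands of depth give a coarse scale for these ratios. The SD of the log2 ratio was 0.57 over 2098 genes with 10 to 100 counts, 0.18 over 5795 genes with 100 to 1000 counts and 0.11 over 4409 genes with more. By these SD only Ccl20 and Il6ra of the 28 lay more than 2 SD from 0, and the share of all genes this far out was not computed. The bands are wide, and the SD fell with depth. Il1rn averaged 81.5 counts, near the top of the first band. The SD of 0.57, which covers genes down to 10 counts, is thus a loose scale for its ratio of 1.02.

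**Figure D3:**
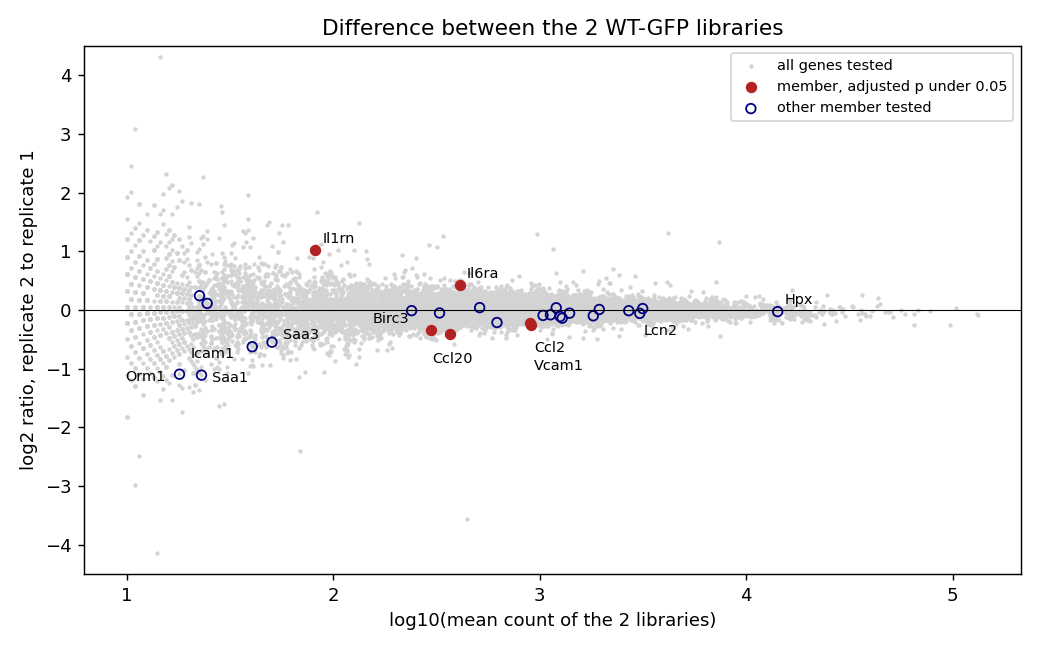
Log2 ratio of replicate 2 to replicate 1 against log10 of the mean count for all 12302 genes tested (grey); filled red points are the 6 of the 34 genes called by the exact binomial test and open blue points the others tested. Il1rn and Il6ra lie above 0, Ccl20, Ccl2, Vcam1 and Birc3 below, and the spread narrows toward abundant genes such as Hpx.

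Placed in order of level, 17 of the 33 neighbouring pairs of the 34 genes were apart in both libraries and 16 overlapped. The first 5 places, Hpx, Lcn2, Tnfrsf1a, Ccl2 and Hp, were each apart from the next. Overlap began with Rela and Stat3, and Tnfaip3, Vcam1, Cxcl1 and Nfkb1 formed a run between 14.7 and 13.6 FPKM in which no neighbours were apart. Another such run went from Il1rn through Ccl7, Saa1, Orm1 and Icam1 to Cxcl5, between 1.60 and 0.815 FPKM. The order within these runs is not resolved by 2 libraries. The pairs that were apart depend on the deposited gene lengths: with the union of exons 4 of the 17 turned their order (Stat3 and Socs3, Ccl20 and Nfkb2, Crp and Nfkbia, Nfkb1 and Il1r1), and Hp (35.5 FPKM) and Rela (34.8 FPKM) came together. Lcn2 (63.9 FPKM) and Tnfrsf1a (57.3 FPKM) also came close together with these lengths.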

How the data were processed

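The 34 genes and all lists were chosen with earlier results of these data known. What the authors deposited were raw counts of reads by gene symbol and, for 2 samples, FPKM; per the submitters' processing notes HISAT2 2.2.1.0 and the builds hg38 and mm10 were used, without roles. The counter, strand setting and annotation are not stated in those notes or the labels. Deposited FPKM equal the counts divided by library total and a whole gene length (within 0.01 bp for 100.0% of genes with a count), so they carry no composition correction. Libraries held 18532457 counts over 14759 genes (replicate 1) and 17821682 over 14923 (replicate 2), and 7 count columns tied to no sample were not used. Symbols were matched to GENCODE M21 (20624 of 21878), and promoters to RefSeq. Log2 ratios used a prior of 0.5 counts, and TMM came from edgeR 4.0.16. The exact binomial test was tested on simulated counts that varied by counting error alone, so that trial does not cover other variation between real libraries. Intervals are Clopper-Pearson and, like the floor of 3 counts, cover counting error only, since these reads carry no molecular identifiers and PCR copies cannot be told from separate molecules. All 34 genes were to be described, and of every other list the 3 highest plus 8 fixed pathway genes. Protein sequences of Saa and Orm genes, also planned, are not shown.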

Additional observations from a re-analysis of the deposited data

How the results depend on the processing

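The alternatives were lengths from the union of GENCODE exons, TMM scaling, other thresholds and minimum counts, and each library alone. The median of the 34 genes was 5.30 FPKM with exon-union lengths and 14.2 FPKM over those averaging 10 counts or more, and 11.4 to 11.7 FPKM in single libraries. Below 0.5 FPKM, in place of 1 FPKM, were 5 genes, and 7 to 10 genes were below 1 FPKM in single libraries. In single libraries 18 genes reached 10 FPKM. Requiring a log2 ratio of at least 0.5 left 1 of the 6 genes that differed between the libraries, Il1rn, and a threshold of 0.01 left 4. No called gene changed direction with TMM scaling. No paired analysis was possible because the 2 libraries that could be tied to a sample belong to 1 group. At this depth a count of 0 does not exclude RNA at up to 0.162 CPM in replicate 1 or 0.168 CPM in replicate 2.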

Other observations

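Beyond the chemokines and cytokines described above, few such genes were expressed. Of 25 others 19 were below 1 FPKM and none reached 10 FPKM. The highest were Il33, a nuclear alarmin, at 9.34 ± 0.941 FPKM (SD, n = 2), Csf1, the macrophage growth factor, at 8.76 ± 1.24 FPKM, and Cxcl16, a membrane-bound chemokine, at 8.10 ± 0.579 FPKM. Cxcl10, an interferon-induced chemokine, had 5 and 11 counts, and Osm itself had none in either library, although the cells were given the protein. Of the other cytokine genes counted in the interleukin-6 and OSM route, Lif had 244 and 307 counts (2.33 ± 0.439 FPKM) and Il11 had 5 and 8. Both were chosen here after their values were seen.

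Saa4 and Serpina3g, chosen here after their values were seen, had no counts, and Hamp, the gene of the iron hormone hepcidin and chosen likewise, had 4 and 6. Within the acute phase these genes stood with Saa2 and Orm2 at the low end, and Hpx, Fgb and Cp stood at the other.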
